A study of Mus musculus with 10 samples.

Results

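The genes described here encode the major histocompatibility complex (MHC) molecules of the mouse and the machinery that loads them with peptide. Members were taken by symbol, as every gene whose symbol begins with H2- together with 15 named genes of antigen processing, loading, regulation and costimulation. The tables held 31 of them among 13091 genes, 17 with the H2- prefix and 14 of the 15 named genes, the exception being *Ciita*. RNA was sequenced from neutrophils grown in culture from bone marrow progenitors of the 129-SVEV strain, immortalized with an estrogen-dependent HoxB8 and matured by removing estrogen. By the sample titles, the vimentin positive (*Vim*+/+) neutrophils had 2 biological replicates and the vimentin negative (*Vim*-/-) neutrophils had 3. The vimentin negative cells are described as Vimentin KD in the labels and as derived from knockout mice in the methods. Each replicate number had 1 unstimulated library and 1 library after 1 hour with LPS at 25 ng per mL. This gave 10 libraries in 4 groups of 2, 3, 2 and 3. HoxB8 immortalization was shared by all groups, and the methods describe lines that were each grown from a single sorted cell. Neither the titles nor the methods say which clonal line a replicate came from. Whether a number stands for the same line with and without LPS is not stated either.

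MHC class I molecules are made of a heavy chain and the light chain β2-microglobulin, and they show peptides from the cell's own proteins to CD8+ T cells. The peptides are cut by the proteasome, pumped into the endoplasmic reticulum by the TAP transporter, trimmed, and fitted into the heavy chain by a loading complex. MHC class II molecules are heterodimers that show peptides from engulfed material to CD4+ T cells. They are guided by the invariant chain and edited by the DM and DO proteins, and they are typical of dendritic cells, B cells and macrophages. Neutrophils are known to carry class I, whereas class II appears on them mainly under particular cytokine conditions.

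The value used for each gene was the authors' mean normalized count, the average over the 10 libraries of gene counts scaled for library size. It is a pooled value, with no spread between replicates, genotypes or treatments. It was the same in all 4 deposited tables for all 13091 genes. The tables' other columns are the authors' own comparisons and were not used, so differences between genotypes and with LPS are not analysed here, no test was run, and every statement below describes the average transcriptome of these neutrophils. Sequencing depth per library is unknown from the tables used here. Because longer transcripts yield more reads, levels were compared between genes only after division by the length of the longest annotated transcript, giving a mean normalized count per kilobase, and the median gene stood at 309.6 on that scale. *Vim* had a mean normalized count of 39926, which averages both genotypes and so does not check the labels.

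Before levels are read, the sequence context of the class I heavy chains is given, since some of these genes share long stretches of sequence. The 30 bases that begin at the first κB consensus (the binding motif of NF-κB) before the RefSeq start are shown for 5 heavy chains. These are the class I heavy chains found with such a match, shown to compare genes of very different level. *H2-T23* and *H2-T-ps* had no match, and *H2-T24*, *H2-T10* and *H2-Bl* had no promoter entry and were not searched. Capitals mark the κB consensus and the letters AANNGAAA on either strand, the core of the interferon-stimulated response element. Only matches wholly within the 30 bases are marked. *H2-M3* had 1 AANNGAAA match in its promoter window, which does not lie wholly within the bases shown. The sequences are RefSeq reference sequence of GRCm38.p6, not of the 129-SVEV strain, and all lie on chromosome 17.
H2-D1: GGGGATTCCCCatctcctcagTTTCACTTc
H2-K1: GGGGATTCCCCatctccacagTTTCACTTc
H2-Q4: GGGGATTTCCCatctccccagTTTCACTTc
H2-T22: GGAGAGTCCCtaattggcttagTTTCACTT
H2-M3: GGAGATTCCCccatttcctctgaggtttca
They lie at chr17:35262923-35262952 (*H2-D1*, plus strand), chr17:34000429-34000458 (*H2-K1*, minus strand), chr17:35379443-35379472 (*H2-Q4*, plus strand), chr17:36042926-36042955 (*H2-T22*, minus strand) and chr17:37270108-37270137 (*H2-M3*, plus strand). The first base is 171, 111, 174, 213 and 126 bases before the RefSeq start, in that order. For *H2-D1* the GENCODE gene used for lengths and positions starts further upstream, so that element begins 193 bases inside it, and the other 4 elements lie outside the GENCODE genes. Position by position against *H2-K1*, *H2-D1* shared 29 of the 30 bases, *H2-Q4* shared 28 with it, and *H2-T22* and *H2-M3* shared 13 each. No gaps were allowed, so the TTTCACTT of *H2-T22*, which is out of step with that of *H2-K1*, did not count in full.

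Classical class I heavy chains, the polymorphic molecules that present most peptides, were among the more abundant transcripts. *H2-D1* had a mean normalized count of 89350 and *H2-K1* of 17142. Per kilobase *H2-D1* stood at 42507 and *H2-K1* at 9147, above 99.4% and 96.8% of the 12046 genes with a length. The level of *H2-D1* was 4.65 times that of *H2-K1*. Dividing by the longest coding sequence instead gave 5.31 times, and by the longest protein-coding transcript 4.01 times, while the median transcript length gave 8.004 times, so *H2-D1* was the higher with each.

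*B2m*, which encodes the light chain shared by all class I molecules, had a mean normalized count of 40832 on a transcript of 860 bases. Its level of 47479 per kilobase was 1.12 times that of *H2-D1* and 5.19 times that of *H2-K1*. Against *H2-D1* the order turned with the median transcript length, where the ratio was 0.298. Set against the sum over the 10 classical and non-classical heavy chains with a row, *B2m* came to 0.865 of that sum. This ratio was 1.09 with coding lengths and 0.258 with the median transcript length, so its side of 1 depends on which length is used. The coding value leaves out *H2-T-ps*, which has no coding length. *B2m* lies outside the H2 complex, on chromosome 2 from 122147686 to 122153083.

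Non-classical (class Ib) heavy chains, which present restricted sets of ligands, were far lower. The 8 with a row had a median of 179.2 per kilobase, below the median gene, and 3 of the 8 lay above it, of which *H2-T22* fell below with the median transcript length. They include *H2-T-ps*, *H2-T10* and *H2-Bl*, which the annotation lists as pseudogenes of fixed or polymorphic kind. *H2-T23*, which encodes Qa-1, the ligand of the NKG2A receptor, was the highest at 1510 (mean normalized count 3990). *H2-T24* followed at 863.1 and *H2-T22*, whose product binds γδ T cell receptors, at 334.8. *H2-M3*, which presents N-formylated peptides such as those of bacteria and mitochondria, stood at 165.2. *H2-T-ps* stood at 193.2, *H2-T10* at 134.5, *H2-Bl* at 27.0 and *H2-Q4* at 19.3. *H2-D1* exceeded *H2-T23* by 28.1 times, a ratio that was 22.1 with coding lengths, 68.1 with the median transcript length and 15.7 with the longest protein-coding transcript. *H2-K1* and *H2-D1* together held 94.1% of the summed level of the 10 heavy chains.

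**Figure D1:**
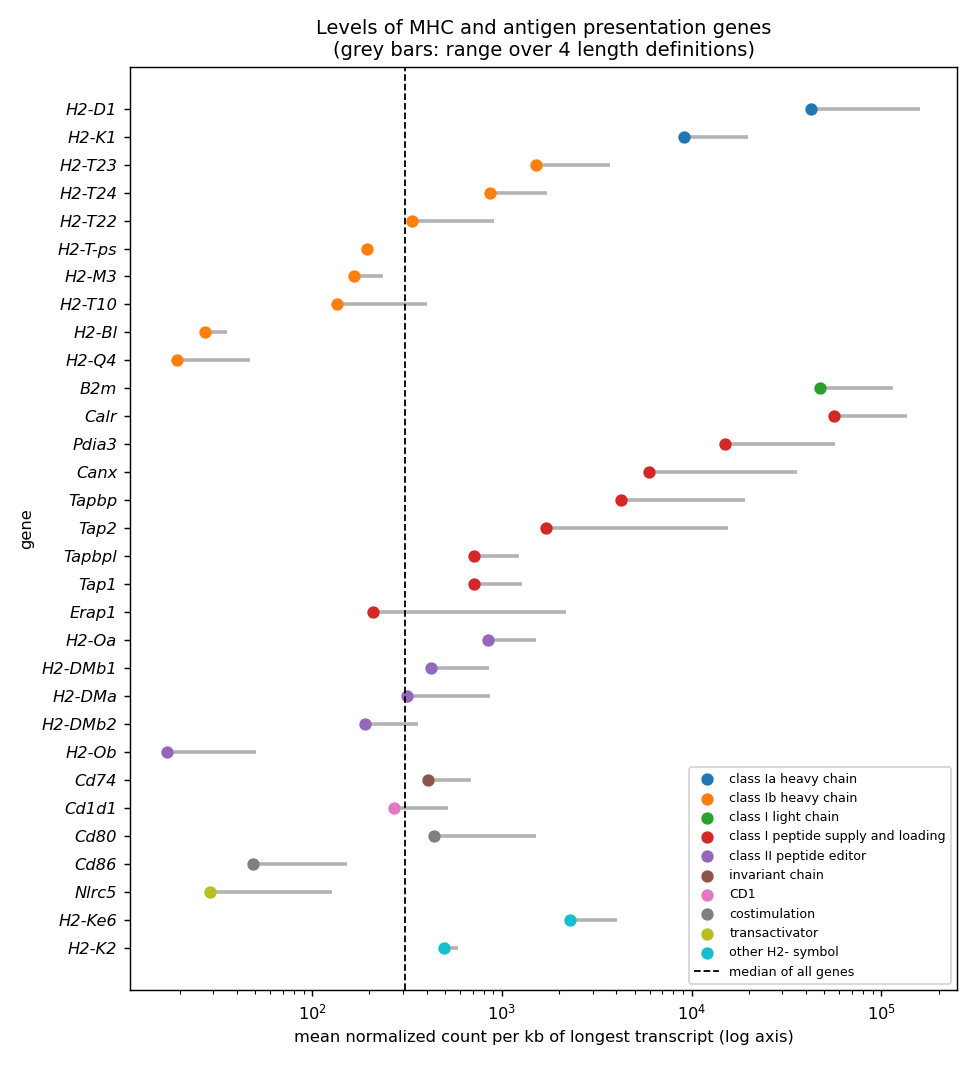
Level of each of the 31 genes as mean normalized count per kilobase of the longest transcript (horizontal log axis), grouped and coloured by function. Grey bars span the values under 4 definitions of length, and the dashed line is the median of all genes at 309.6. *Calr*, *B2m* and *H2-D1* are the highest points, and *H2-Ob* and *H2-Q4* the lowest.

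The 8 peptide supply and loading genes had a median of 2979 per kilobase, below that of the classical heavy chains and *B2m*, and made up 43.9% of the summed level of the members. Of the 8, 7 lay above the median gene. *Calr*, the calcium-binding chaperone calreticulin, stood at 56368 (mean normalized count 123108), first among the members and 1.19 times *B2m*. On coding lengths *B2m* came first, with *Calr* at 0.862 of its level. With the median transcript length *H2-D1* came first, and *Calr* was then 2.89 times *B2m*. *Pdia3*, the disulfide isomerase ERp57, stood at 14884 and *Canx*, the membrane-bound chaperone calnexin, at 5933. These 3 proteins serve the folding of many glycoproteins and are not particular to class I. Their genes held most of the group's summed level of 84772 per kilobase, so its share of 43.9% is not a measure of class I loading alone. *Tapbp*, which encodes tapasin, the bridge between TAP and the heavy chain, had a mean normalized count of 12343 and a level of 4259.

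Genes more particular to class I peptide supply were lower. *Tap2* stood at 1699 per kilobase and *Tap1*, the other subunit of the TAP heterodimer, at 709.1, a ratio of 2.40. The ratio was 2.17 with coding lengths, 1.81 with the longest protein-coding transcript and 14.7 with the median transcript length. *Tapbpl*, which encodes the peptide editor TAPBPR, stood at 710.3, below *Tapbp* under each length tried. *Erap1*, the aminopeptidase that trims peptides in the endoplasmic reticulum, was the lowest of the group at 209.0, below the median gene, although its mean normalized count of 1179 was above the median of 907.2 for all genes. With the median transcript length *Erap1* was instead above the median gene, at 2184 against 713.0.

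The class II side was represented only in part. None of the class II heterodimer chains *H2-Aa*, *H2-Ab1*, *H2-Eb1*, *H2-Eb2* and *H2-Ea-ps* had a row, nor did *Ciita*, the master transactivator of class II genes. The lowest mean normalized count of any gene in the tables was 5.08, and nothing can be said here about the level of a gene without a row. *Cd74*, the invariant chain, had a mean normalized count of 575.1 and a level of 407.9 per kilobase, 1.32 times the median gene. *H2-D1* and *B2m* exceeded it by 104.2 and 116.4 times, which became 119.7 and 166.5 times on coding lengths and 339.0 and 101.1 times with the median transcript length. *Cd74* was below the median gene when levels were computed on coding lengths (0.836 times) or the median transcript length (0.659 times), so its side of the median depends on the length used.

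The 5 class II peptide editors had a median of 313.9 per kilobase, close to the median gene. *H2-Oa*, the alpha chain of DO, was the highest at 844.4, while *H2-Ob*, its partner beta chain, stood at 17.2 (mean normalized count 46.0), the lowest of the 31 members on this scale. *H2-Q4* was the lowest with the median transcript length, and *H2-Bl* was the lowest of the 29 members with a coding length. *H2-Oa* was 49.0 times *H2-Ob*, and 29.8 times on coding lengths. For DM, which DO inhibits, the alpha chain *H2-DMa* stood at 313.9 and the beta chains *H2-DMb1* and *H2-DMb2* at 422.9 and 189.7. Part of *H2-Oa* lies opposite another annotated gene, as described below.

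*Nlrc5*, the transactivator of class I genes, had a mean normalized count of 219.3 and, on its transcript of 7578 bases, a level of 28.9 per kilobase, higher than only 15.3% of genes. The costimulatory ligands of CD28 were unequal. *Cd80* stood at 435.5 per kilobase and *Cd86* at 48.7, a ratio of 8.95 that was 11.3 with coding lengths and 5.35 with the median transcript length. *Cd1d1*, which presents lipids to natural killer T cells, stood at 270.3, under the median gene with each length tried.

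Across all 31 members the median level was 435.5 per kilobase, against 309.6 for all genes, and 20 of the 31 lay above the median gene. That count was 19 with the longest protein-coding transcript and 17 with the median transcript length. With coding lengths it was 16 of 29. The highest exceeded the lowest by 3269 times, and by 6980 times with the median transcript length, where they were *H2-D1* and *H2-Q4*. In the plot of the members under all genes, 7 members lay above at least 93.1% of genes, namely *Calr*, *B2m*, *H2-D1*, *Pdia3*, *H2-K1*, *Canx* and *Tapbp*, and 5 lay above at most 20.3% of genes, namely *Cd86*, *Nlrc5*, *H2-Bl*, *H2-Q4* and *H2-Ob*. Together the members made up 0.681% of the summed mean normalized counts. Of the 29 members with a coding length, 14 stayed above and 9 below the median gene under each of 4 definitions of length, and 6 changed side.

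**Figure D2:**
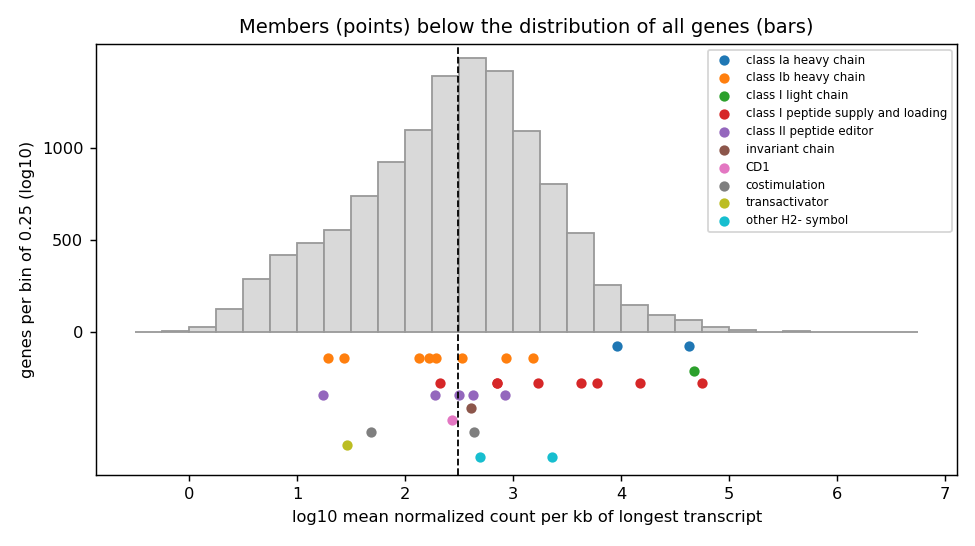
Grey bars count genes in bins of log10 mean normalized count per kilobase, and coloured points below the axis mark the members by function. The dashed line is the median of all genes. The 2 classical heavy chains and *B2m* sit in the right tail, while class Ib chains and class II editors lie on both sides of the median.

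The H2- genes lie in one stretch of chromosome 17, the mouse MHC, and 20 of the 31 members were on that chromosome, including *Tap1*, *Tap2* and *Tapbp*. GENCODE M21 annotates 45 symbols with the prefix, of which 17 had a row, and 13 of its 34 protein-coding symbols did. Rows were unevenly spread along the complex. Of 8 H2-Q symbols only *H2-Q4* had a row, of 6 H2-T symbols 5 did, and of 12 protein-coding H2-M symbols outside DM only *H2-M3* did. *H2-K1*, from 33996017 to 34000347, and *H2-D1*, from 35262730 to 35267499, lie 1.27 Mb apart with the class II genes between them. *H2-Ke6*, which carries the prefix by its position and encodes a hydroxysteroid dehydrogenase rather than an MHC molecule, had a level of 2293.

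**Figure D3:**
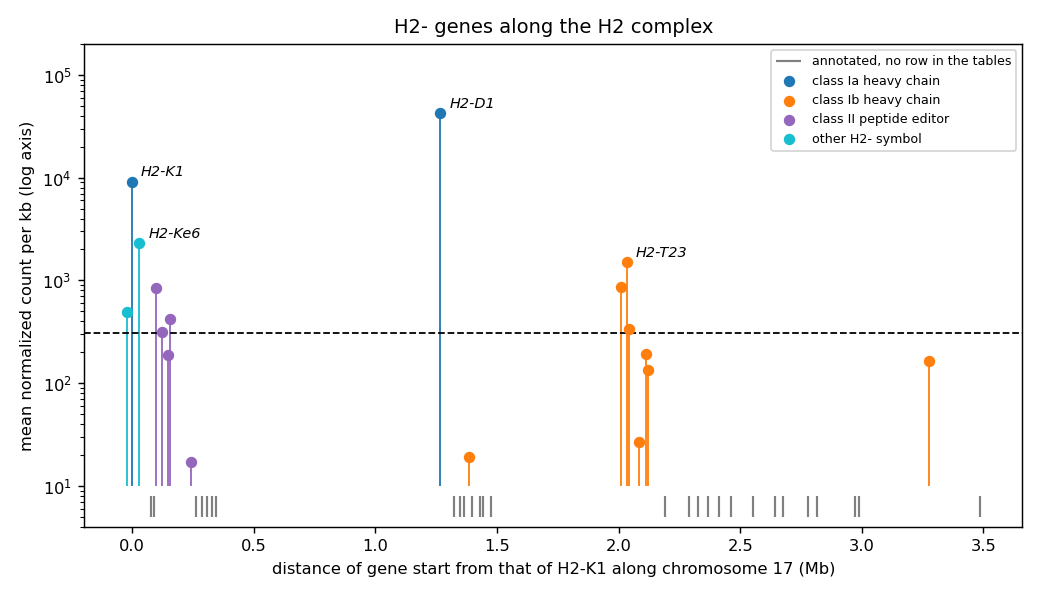
Level of each H2- gene (vertical log axis, mean normalized count per kilobase) by the distance of its start from that of *H2-K1* in Mb. Grey ticks at the bottom mark annotated H2- genes without a row, and the dashed line is the median of all genes. *H2-D1* at 1.27 Mb stands above every other H2- gene that has a row.

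Reads from near-identical genes cannot be told apart, and the study's methods do not say how reads with several alignments were counted. Each member's longest transcript was therefore cut into windows of 150 bases, the read length, and exact matches were sought in the transcripts of every other gene. For *H2-K1* and *B2m* none of the windows had a match elsewhere, and for *H2-D1* 1.79% did, all in *H2-Q1*, so at full read length these genes were largely distinct in the reference. With windows of 50 bases the shares rose to 8.11% for *H2-K1* and 14.3% for *H2-D1*, and remained 0 for *B2m*. *H2-DMb1* and *H2-DMb2* shared 72 windows of 150 bases with each other, 5.74% and 5.40% of their windows, and *Cd1d1* shared 6.62% with *Cd1d2*. The reference is not of the strain studied, and MHC genes are among the most variable between strains, so the alignment of strain-specific alleles was not tested.

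Overlapping genes shared sequence as well. In *H2-Ke6* 87.2% of the windows were also in *Gm20427*, which overlaps it on the same strand. In *H2-T22* 29.4% were in *A930015D03Rik* and in *H2-T10* 24.1% were in *BC023719*, each annotated on the opposite strand. With windows of 50 bases *H2-T22* shared 58.5% and *H2-T10* shared 50.1% with other genes, and each then had its largest share with the other (32.0% and 30.3%). *Erap1* shared 12.5% with *Cast* and *H2-Oa* shared 6.88% with *BC051537*, again on the opposite strand, and the overlap covered 22.8% of the exon bases of *H2-Oa*. *Tapbp* overlapped *Gm19412* over 24.9% of its exon bases. *H2-Q4* shared 10.5% of its 150-base windows with *Gm11131*, which lies on the opposite strand over 19.1% of its exon bases. Of the 50-base windows of *H2-Q4*, 36.9% occurred in other genes. The methods do not state whether counting used strand, so the values of these genes are uncertain to that extent.

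**Figure D4:**
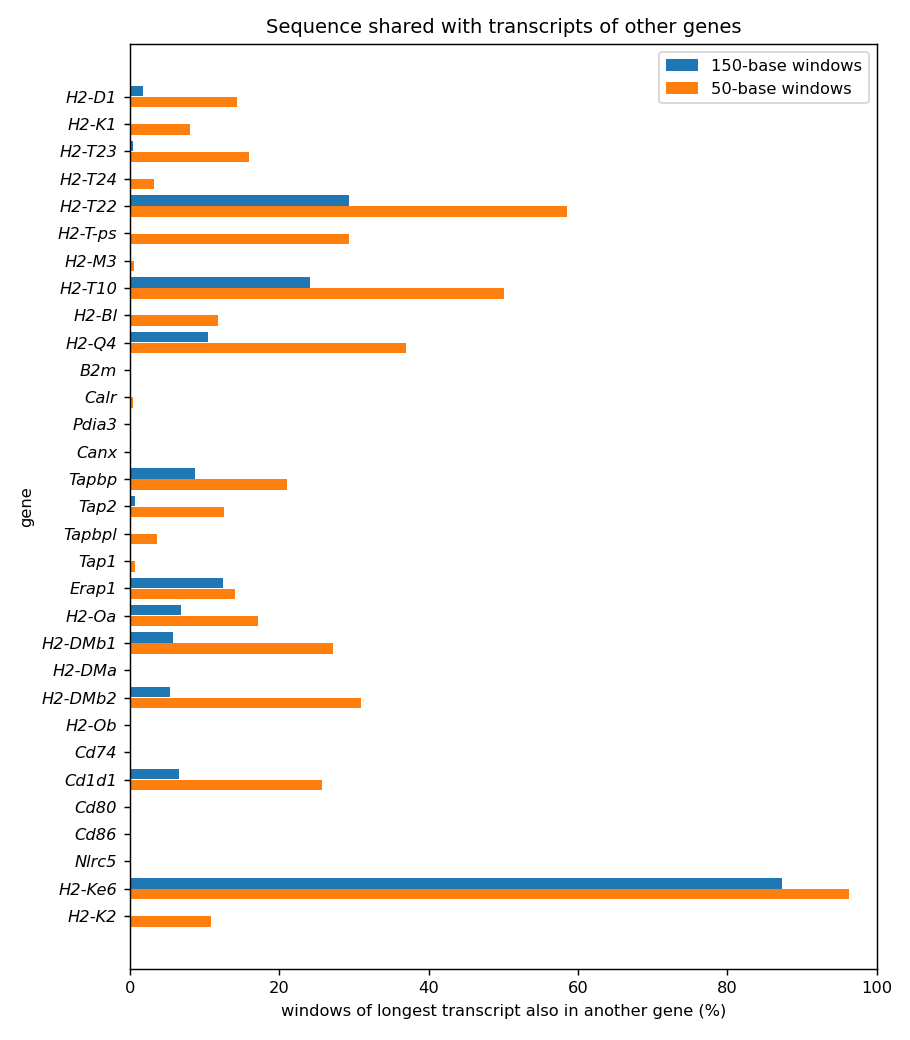
Percentage of windows of each member's longest transcript that also occur, exactly and on either strand, in a transcript of another gene, for windows of 150 bases (blue) and 50 bases (orange). *H2-Ke6*, *H2-T22* and *H2-T10* share the most at 150 bases, and *H2-K1*, *B2m* and the chaperones share little or nothing.

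The known promoter of class I genes combines a κB site, an interferon response element, and a module of a CRE-like box and a CCAAT-like box that NLRC5 acts through. Counted here were the κB consensus, AANNGAAA, TGACG and CCAAT, on both strands and with any overlap, in the 250 bases before the RefSeq start. All 4 were chosen after the promoters of *H2-K1*, *H2-D1* and *B2m* had been read, so matches in those 3 genes carry no weight. They are left out of the counts of members that follow. Other H2- genes can resemble these 3 in sequence, as *H2-Q4* does. Counts of H2- genes here and below are therefore not independent of the choice and test nothing. Of all 32851 promoter windows, 7.25%, 21.3%, 17.8% and 33.8% held the respective motif. A window was given for 21 members, and of the 18 other than those 3, the motifs were held by 4, 7, 6 and 15. *Tap2*, *Tapbpl*, *H2-T24*, *H2-T10*, *H2-Bl*, *H2-K2*, *Cd74*, *Cd86*, *Cd1d1* and *Nlrc5* had no entry.

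All 4 motifs were present in 3 of the 18 members, *H2-Q4*, *H2-T22* and *H2-M3*, beside *B2m*, *H2-K1* and *H2-D1*, on which they were chosen. Among the 27022 other genes with a window, 23 held all 4, of which 6 were H2- genes. Of these, *H2-Q7*, *H2-M2* and *H2-Aa* had no row in the tables. The 6 members with all 4 ranged in level from 19.3 per kilobase for *H2-Q4* to 47479 for *B2m*. *H2-K1* was 474.2 times and *H2-D1* 2204 times higher than *H2-Q4*, whose 30 bases printed above share 28 with *H2-K1*. These ratios were 872.0 and 6980 with the median transcript length and 328.4 and 1745 with coding lengths. With the longest protein-coding transcript they were 379.1 and 1522. *H2-Q4* had a mean normalized count of only 50.1, and its sequence is partly shared with other genes, as given above, so these ratios are uncertain. The class II editors held none of the first 3 motifs, and 4 of the 5 held CCAAT. These are matches of letters and not bound sites.

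The promoter of *B2m* is printed because its product is the chain shared by all class I molecules. It is the stretch chr2:122147437-122147686 of GRCm38.p6, plus strand, from RefSeq, with the same 4 motifs in capitals.
B2m: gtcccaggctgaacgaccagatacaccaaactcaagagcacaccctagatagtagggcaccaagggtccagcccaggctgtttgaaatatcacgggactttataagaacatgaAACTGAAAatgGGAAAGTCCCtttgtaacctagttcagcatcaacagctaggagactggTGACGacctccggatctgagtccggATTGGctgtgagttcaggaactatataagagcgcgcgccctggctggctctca
In *B2m* the AANNGAAA match began 137 bases before the start and the κB consensus, on the minus strand, 126 bases before it. TGACG began at 78 and CCAAT, as its complement ATTGG, at 53.

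Other genes of the pathway lay on both sides of the median gene. All 5 genes of the immunoproteasome and its activator had a row and lay above the median gene, with *Psme1* at 2832 per kilobase, *Psme2* at 2618, *Psmb8* at 1802, *Psmb9* at 552.9 and *Psmb10* at 542.1. The interferon-response factors *Irf1* and *Irf2*, which act on class I promoters, stood at 2064 and 1036. The 7 genes of RFX, NF-Y and CREB, which occupy the box module of class I and class II promoters, had a median of 353.3. Of the lysosomal genes that serve class II loading, *Ctss* (cathepsin S) stood at 972.7, *Ifi30* (the thiol reductase GILT) at 139.5 and *Lgmn* (legumain) at 42.5. *Cd274*, which encodes PD-L1, stood at 969.9, *Icosl* at 570.3 and *Pdcd1lg2* at 186.4, and *Cd40* and *Cd83* had no row.

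Markers of other cell types are given beside the class II values. In bulk RNA, fewer cells of a type cannot be told apart from less RNA per cell. All 12 neutrophil markers had a row, between 11905 per kilobase for *Cxcr2* and 2487150 for *S100a9*. Among B cell markers 1 of 5 had a row (*Cd79a*, 57.5) and among dendritic cell markers 1 of 9 (*Itgax*, 65.4). Monocyte or macrophage markers had 5 of 7, from 219.2 for *Ccr2* to 21057 for *Cd14*, which neutrophils also express, with *Ly6c2* at 9881, *Adgre1* (F4/80) at 3111 and *Csf1r* at 695.4. *Mertk* and *C1qa* had no row. Mast cell, basophil or eosinophil markers had 6 of 7, up to 320189 for *Prg2* and 53097 for *Epx*, and all 6 granulocyte progenitor markers had a row. Their granule genes ranged from 11462 for *Ctsg* to 62605 for *Prtn3*, while *Cd34* stood at 837.2 and *Kit* at 205.1, the latter below the median gene. T or NK cell markers had 2 of 6 and erythroid markers 1 of 4. The part of other cells in the levels of *Cd74* and the editors was not tested.

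**Figure D5:**
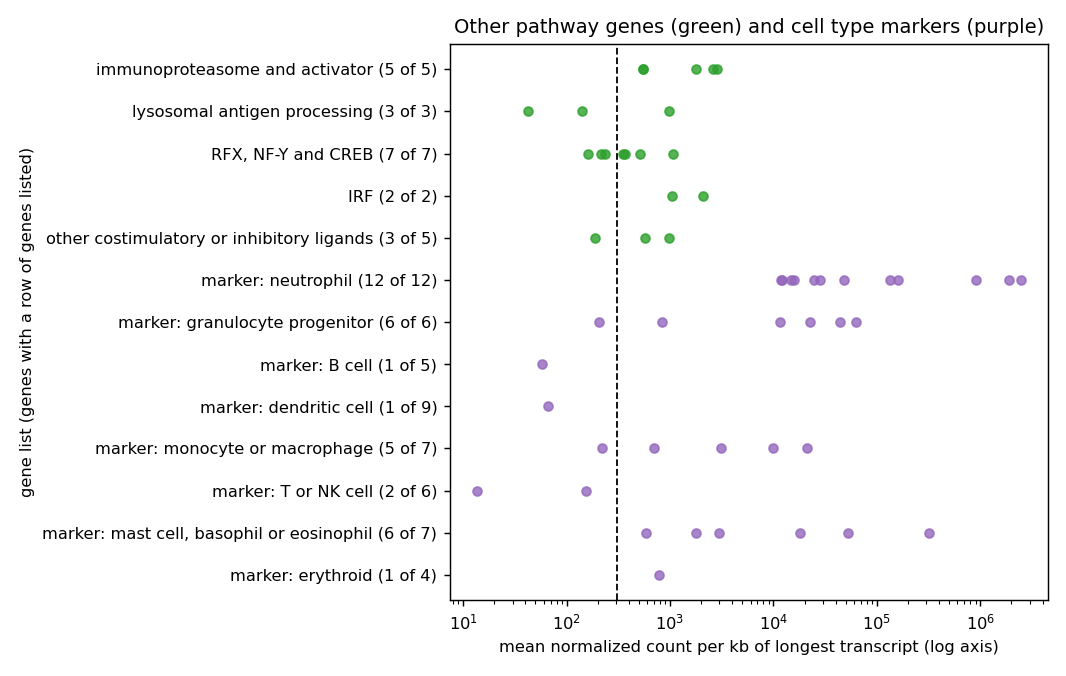
Level of other pathway genes (green) and cell type markers (purple) as mean normalized count per kilobase (log axis), 1 point per gene. Labels give how many genes of each list had a row, and the dashed line is the median of all genes. Neutrophil markers all lie far to the right, as do some of the mast cell, basophil or eosinophil markers (6 of 7 with a row), while monocyte or macrophage markers (5 of 7) spread widely and 1 of 5 B cell and 1 of 9 dendritic cell markers had a row.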

How the data were processed

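RNA from 10 libraries was read as poly(A) mRNA with paired reads. Per the study's methods and processing notes, the authors removed adapters and low-quality bases (cutadapt 4.4), used STAR 2.7.10b with mm10 for alignment and counting, estimated covariates with RUVSeq, and ran DESeq2 1.26.0. The signal used here is the deposited mean of the authors' normalized counts over libraries (baseMean), in 4 tables of 13091 genes. The other columns hold the authors' own fold changes, standard errors, test statistics and p-values between groups, and were not used. The annotation and the strand setting are not given in the sources used here.

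Symbols were matched to GENCODE M21 (GRCm38, equivalent to mm10), with 12046 genes (92.0%) placed, for positions and transcript lengths. Levels are means divided by the longest transcript in kilobases. Median transcript length, longest coding sequence and, chosen after seeing the data, the longest protein-coding transcript were alternatives, as was a minimum mean of 100. Promoters came from RefSeq GRCm38.p6. No test was run, because a pooled mean has no replicate error, and depth per library is unknown from these tables. The window search was tested on simulated data. All members were named, and they and the lists were chosen with earlier results of these data known. Some listed genes are not reported here. Python 3.11.15, pandas 2.3.3, numpy 2.4.6, biopython 1.88 and matplotlib 3.10.9 were used.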

Additional observations from a re-analysis of the deposited data

How the results depend on the processing

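The share of the class I heavy chain level held by *H2-K1* and *H2-D1* kept within 91.6% to 97.4% under the 4 alternatives tried, and the mean read from each of the other 3 tables was identical. Length decided the absolute levels. With the median transcript length the median level was 89584 per kilobase for class Ia chains, 858.1 for class II editors, 17245 for peptide supply and loading, and 713.0 for all genes. With the longest coding sequence it was 48880 for class Ia, 400.8 for class Ib, 758.4 for class II editors, 5803 for peptide supply and loading, and 821.5 for all genes. *H2-T-ps* has no coding length and is left out of that class Ib value. Restricting to means of at least 100 raised the median of all genes to 470.4. Of the 31 members, 18 moved by over 1.5 times with the median transcript length and 3 with the longest protein-coding transcript, as did 26 of 29 with coding length.

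The planned ratio of class I to class II heterodimer chains was not run, as no such class II chain had a row. No paired analysis was possible because the tables used give 1 pooled mean per gene and no value per library, and for the same reason leaving out each replicate in turn was not run. The tables used give neither error between replicates nor depth for any value.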

Other observations

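Some members that the annotation lists as pseudogenes had a row, and whether their reads came from them or from related genes was not tested. *H2-K2*, which neighbours *H2-K1* and is annotated as a transcribed pseudogene, had a mean normalized count of 770.2 and a level of 491.5 per kilobase, above the median gene, with *H2-K1* 18.6 times higher. With the median transcript length it was below the median gene, at 588.2, and *H2-K1* was 33.8 times higher. None of its 150-base windows matched another gene exactly, and 10.9% of its 50-base windows did. *H2-T-ps* had a mean normalized count of 206.2, with 0 shared windows of 150 bases and 29.4% of 50 bases. *H2-T10* and *H2-Bl*, annotated as polymorphic pseudogenes, had mean normalized counts of 455.7 and 30.8. In *H2-T10* 24.1% of the 150-base windows and 50.1% of the 50-base windows occurred in another gene, and in *H2-Bl* 0% and 11.8% did. In the reference strain *H2-T22* and *H2-T10* are close relatives, and *H2-T22* stood 2.49 times higher per kilobase.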
